A study of Mus musculus with 6 samples.

Results

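The Hedgehog receptors, their signal relay and the Gli transcription factors were examined in cultured mouse lung fibroblasts. All probes annotated to Ptch1, Smo, Gli1, Gli2, Gli3, Hhip or Sufu were taken, which gave 16 probes for these 7 genes, out of 45281 probes and 19057 named genes on the array. RNA came from lung fibroblasts of 10-week-old mice, 3 wild type (wt, p38+/+) and 3 homozygous for a knock-in allele (ki, p38ki/ki), with 1 Illumina bead array per mouse. Both genotypes were grown alike in DMEM/F12 medium with 15% fetal calf serum, with no other agent named, and were used at passage 1. The labels name neither the p38 gene that carries the allele nor the change it makes. p38 kinases are stress-activated protein kinases. They give no sex of the mice and no cell type to which the allele was limited.

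Hedgehog ligands bind the receptor Ptch1, which otherwise holds the membrane protein Smo inactive. Freed Smo gathers in the primary cilium and releases the Gli factors from Sufu, so that Gli2 acts mainly as an activator and Gli3, when cleaved, mainly as a repressor. Ptch1, Hhip and Gli1 are themselves transcribed in answer to the pathway, and Ptch1 and Hhip then damp it by binding ligand. In the developing lung the epithelium releases Sonic hedgehog and the surrounding mesenchyme, which includes fibroblast precursors, responds.

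The arrays detected 38.9% to 40.9% of probes, and their mean background-subtracted signal was 712.3 to 846.7 in wt and 519.4 to 694.7 in ki, where ki array 2 was the dimmest. A probe counted as detected at a detection p under 0.05 against the negative controls of its array. All 8 fibroblast markers examined were detected, 5 of them lower and 0 higher in ki, with a summed normalised intensity of 88185 to 95178 on wt and 69173 to 72520 on ki arrays. All 9 mesothelial markers on the array (genes of the pleural lining) were higher in ki, with sums of 1376 to 1609 against 10270 to 11019, and Krt19 and Gpm6a undetected in wt. Of 6 lung epithelial markers 1 was higher and 3, Sftpb, Sftpc and Epcam, were undetected on all arrays (sums of 268.7 to 401.5 and 630.0 to 643.7). All 5 macrophage markers on the array were detected in both genotypes, 1 of them higher (Adgre1) and 1 lower (C1qa) in ki. The macrophage sum was 101928 to 106229 in wt and 99240 to 106158 in ki. Of 5 smooth muscle and pericyte markers 1 was higher (Des) and 1 lower (Myh11). Of 4 endothelial markers 0 passed in either direction, with a median difference of -0.32 and sums of 676.7 to 759.4 in wt and 541.4 to 611.7 in ki. Ptprc, the 1 pan-leukocyte marker, did not pass either (71.7 to 109.8 in wt and 74.2 to 123.6 in ki). All 4 neutrophil markers were lower in ki (2871 to 3070 against 164.8 to 209.6). The part of these shifts in any value below was not tested. In bulk RNA, fewer cells of a type and less RNA per cell cannot be told apart.

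The receptor Ptch1, the relay genes Smo and Sufu, and Gli2 and Gli3 were detected in both genotypes, and none of their detected probes differed past the threshold. Of the genes, Ptch1, Smo, Gli2, Gli3 and Sufu had probes detected on all 6 arrays, 8 probes in all, whereas Gli1 and Hhip had none. With limma's moderated test, 0 of these 8 probes passed at an adjusted p under 0.05, and 1, for Sufu, had an unadjusted p under 0.05. Over all 18249 probes tested, 14.3% passed, 7.21% higher (1315) and 7.06% lower (1289) in ki, and 29.1% had an unadjusted p under 0.05. The median absolute log2 difference was 0.166 over the 8 probes and 0.168 over all probes tested, and the smallest difference that passed anywhere was 0.258. The genotypes did not overlap on 2 of the 8 probes, a share of 25.0%, against 35.5% of all probes tested. All levels are normalised log2 intensities of single probes, differences are ki minus wt with a standard error (SE) and a 95% interval, and n = 3 arrays per genotype. Adjusted p-values cover all probes tested.

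**Figure D1:**
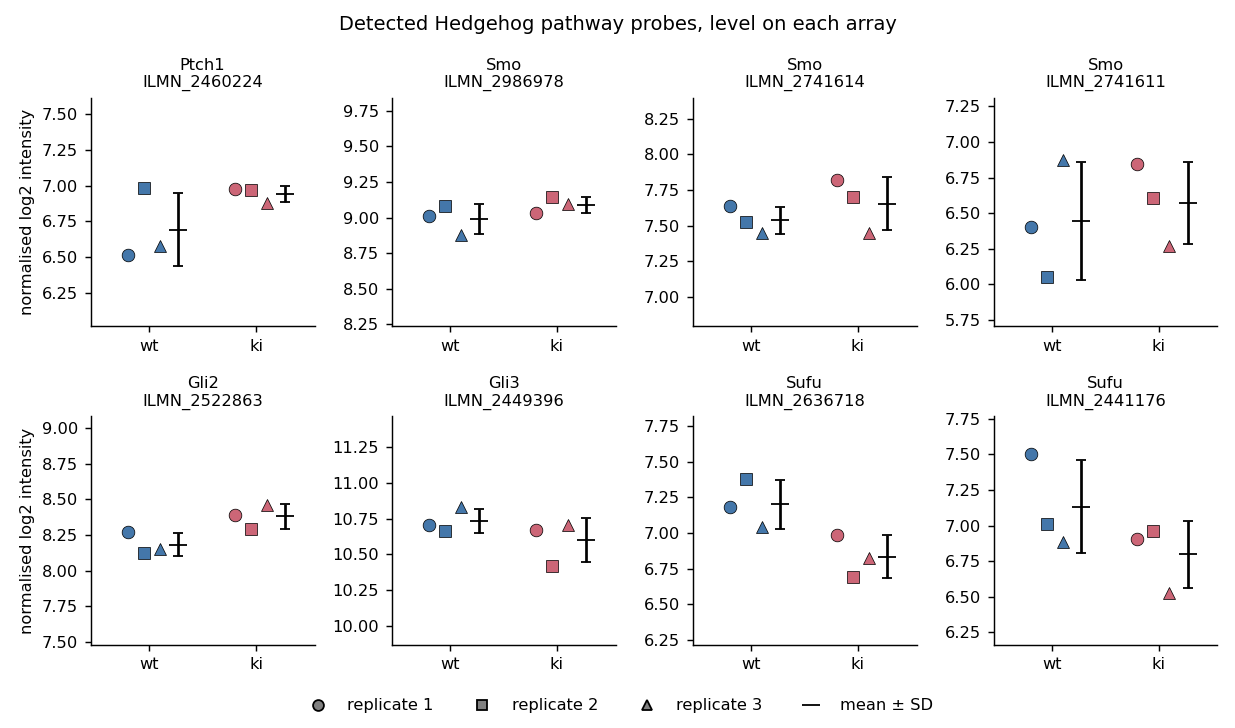
Normalised log2 intensity (vertical axes, each spanning the same range) of the 8 detected probes in wt and ki, with a symbol for each replicate number and a bar for the mean ± SD of 3 arrays. The genotypes separate for Gli2 ILMN_2522863 (ki above wt) and Sufu ILMN_2636718 (ki below wt) and overlap for the other probes.

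Ptch1, the ligand receptor and itself a target of the pathway, was read by 1 detected probe (ILMN_2460224). Its background-subtracted signals in wt 1, 2 and 3 were 90.5, 113.2 and 80.1, and in ki 1, 2 and 3 they were 114.1, 82.2 and 107.7. After normalisation the levels were 6.51, 6.99 and 6.57 in wt and 6.98, 6.97 and 6.88 in ki. The ki arrays lay close together, and wt array 2 reached their level while the other wt arrays lay below, so the groups overlapped. The difference was 0.25 (SE 0.13, interval -0.07 to 0.57, adjusted p = 0.277). With 1 array left out it ran from 0.16 without wt array 1 (adjusted p = 0.55) to 0.40 without wt array 2 (adjusted p = 0.0556). None of these fits met the threshold. The other Ptch1 probe was detected on no array.

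Smo, the membrane protein that passes the signal on once Ptch1 is bound, had 3 detected probes. The brightest (ILMN_2986978) stood at 9.01, 9.08 and 8.88 in wt and at 9.03, 9.14 and 9.10 in ki. These ranges overlapped, with a difference of 0.10 (SE 0.084, interval -0.10 to 0.30, adjusted p = 0.486). The interval for this probe runs from 0.932 to 1.23 times the wt level. The second probe (ILMN_2741614) gave 7.64, 7.52 and 7.45 in wt and 7.82, 7.70 and 7.45 in ki, a difference of 0.12 (SE 0.11, adjusted p = 0.548). The third (ILMN_2741611) scattered most, from 6.05 to 6.87 in wt and from 6.27 to 6.85 in ki, with a difference of 0.13 (SE 0.23, adjusted p = 0.762). All 3 estimates were small and positive, and each moved with single arrays. The first was 0.043 without wt array 3, the second ran from 0.036 without ki array 1 to 0.22 without ki array 3, and the third turned to -0.066 without wt array 2 and to -0.0075 without ki array 1. The remaining Smo probe was detected on no array.

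Gli2, the main activator among the Gli factors, was higher on each ki array than on any wt array (ILMN_2522863). Its levels were 8.27, 8.12 and 8.15 in wt and 8.39, 8.29 and 8.46 in ki. The gap between the highest wt and the lowest ki array was narrow, and the difference of 0.20 (SE 0.084, interval -0.003 to 0.40) missed the threshold (adjusted p = 0.176). Under scaling to the median of all probes, which lies near background, it was -0.0065, on a scale where the median probe tested stood at -0.22. The second Gli2 probe (ILMN_2668750) was detected on ki array 1 alone, with signals of 26.2, 13.6 and 22.6 in wt and 39.0, 26.4 and 36.1 in ki.

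Gli3, the Gli factor best known as a repressor in its cleaved form, gave strong signals, 2050, 1673 and 1863 on the wt and 1634, 1002 and 1684 on the ki arrays (ILMN_2449396). Its normalised levels were 10.71, 10.66 and 10.83 in wt and 10.67, 10.42 and 10.71 in ki. Only ki array 2, the dimmest array, fell outside the wt range. The difference was -0.13 (SE 0.10, interval -0.38 to 0.11, adjusted p = 0.445), and without ki array 2 it was -0.044. The second Gli3 probe was detected on wt array 2 alone.

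Sufu, which binds the Gli proteins and holds them in check, showed the largest difference among the 8 detected probes, without passing the threshold. The probe annotated to transcript NM_001025391 (ILMN_2636718) stood at 7.18, 7.38 and 7.04 in wt and at 6.99, 6.69 and 6.83 in ki. Every ki array lay below every wt array, by a difference of -0.37 (SE 0.12, interval -0.65 to -0.08, unadjusted p = 0.0195, adjusted p = 0.0958 by limma). The probe annotated to NM_015752 (ILMN_2441176) gave 7.50, 7.01 and 6.88 in wt and 6.91, 6.96 and 6.53 in ki. Here wt array 1 stood high and the groups overlapped (difference -0.33, SE 0.19, interval -0.79 to 0.12, adjusted p = 0.303), and without wt array 1 the difference was -0.15. Both probes were thus lower in ki on average, and the arrays that stood highest differed between them, wt 2 for the first and wt 1 for the second. At an adjusted p under 0.05 the first passed in 1 alternative fit, scaling to the median of all probes (-0.53, adjusted p = 0.042), where it lay -0.31 from the median probe. The other 2 Sufu probes were detected on no array.

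**Figure D2:**
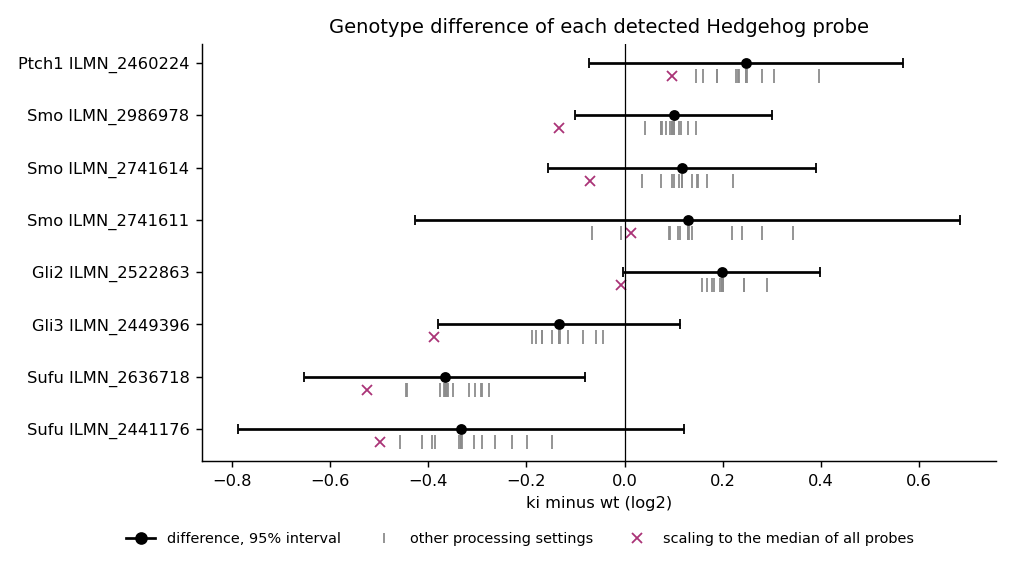
Difference ki minus wt (log2, horizontal axis) of the 8 detected probes with its 95% interval (black), and the same difference under the other processing settings (grey ticks) and under scaling to the median of all probes (crosses). The intervals of 7 probes include 0, that of Sufu ILMN_2636718 runs from -0.65 to -0.08, and the crosses lie left of the ticks except for Smo ILMN_2741611.

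The pathway's most specific readouts, Gli1 and Hhip, could not be compared. Gli1, a Gli activator made in answer to the signal, had 1 probe, with signals of -0.417, -14.0 and -3.85 in wt and 5.75, 3.57 and -4.65 in ki. These lie around the level of the negative controls, whereas the dimmest detected probe of each array had a signal between 31.2 and 41.5. Hhip, a membrane protein that captures Hedgehog ligands, had 1 probe as well, at 12.3, 15.8 and 8.10 in wt and at 51.5, 23.1 and 13.3 in ki. Only on ki array 1 was it detected. Of the 8 probes left out of the test, 5 were detected on no array and 3 on 1 array, with signals between -31.9 and 51.5. An undetected probe does not show that a transcript is absent. The only probe of Csnk1a1, a casein kinase in general use by cells, was detected on 1 of the 6 arrays.

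**Figure D3:**
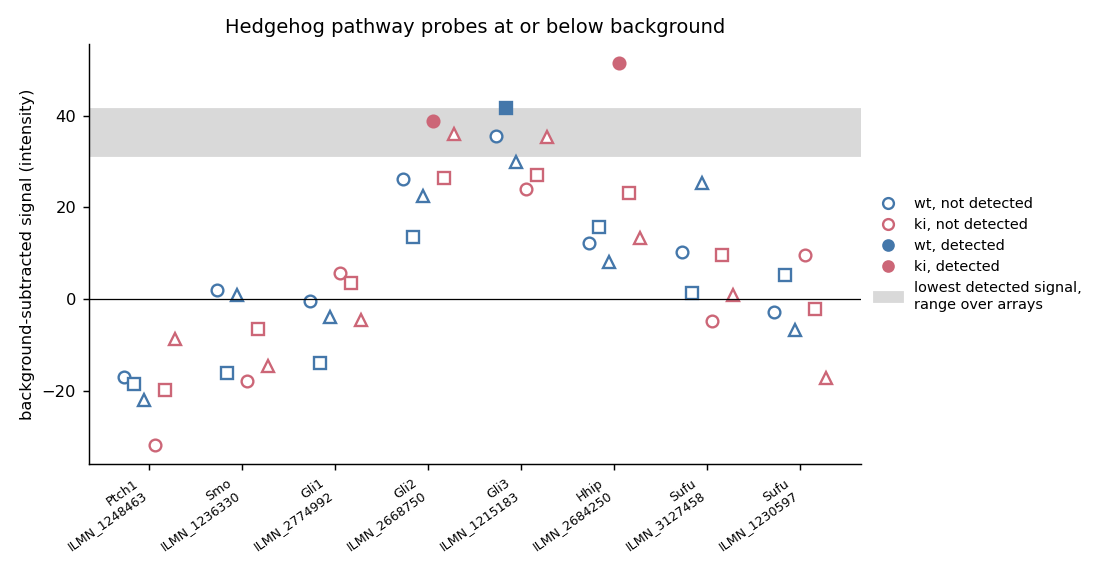
Background-subtracted signal (linear intensity, vertical axis) on each of the 6 arrays for the 8 probes detected on fewer than 3 arrays, with filled symbols where detected and the grey band at 31.2 to 41.5, the lowest detected signal over arrays. Filled symbols appear for Gli2 and Hhip on ki array 1 and for Gli3 on wt array 2, and the Gli1 points lie around 0.

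The promoters of the genes examined, feedback genes and others, were read for the motif that Gli proteins bind, GACCACCCA, on both strands (TGGGTGGTC on the other). RefSeq windows of build GRCm38.p6, from 250 bases before the start to 50 after it, matched 6 of the 7 genes, and that of Gli1 was not used here. None of the 6 held the motif exactly, nor with 1 mismatch, while 0.253% and 6.74% of 32851 windows did. The 250 bases before the start of Ptch1 (chr13:63565736-63565985, minus strand) and Hhip (chr8:80058009-80058258, minus strand) are shown because both genes are known direct targets. Capitals mark the closest stretches, with 3 mismatches in Ptch1 and 2 in Hhip, numbers met by 99.4% and 58.3% of all windows, and neighbouring stretches run together.
Ptch1: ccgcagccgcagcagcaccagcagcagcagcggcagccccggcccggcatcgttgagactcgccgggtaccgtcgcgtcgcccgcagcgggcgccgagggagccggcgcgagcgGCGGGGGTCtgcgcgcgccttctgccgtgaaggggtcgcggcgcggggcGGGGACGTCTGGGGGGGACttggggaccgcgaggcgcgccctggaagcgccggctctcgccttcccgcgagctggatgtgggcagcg
Hhip: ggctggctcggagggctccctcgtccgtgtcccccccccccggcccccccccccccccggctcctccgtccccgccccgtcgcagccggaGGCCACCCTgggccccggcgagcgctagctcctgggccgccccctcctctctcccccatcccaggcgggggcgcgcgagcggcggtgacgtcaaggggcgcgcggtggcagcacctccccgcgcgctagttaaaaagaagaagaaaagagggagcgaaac
These are matches of letters only, and the files hold no binding data.

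Outside the core, the ligands and the genes for their release gave no passing difference. Of 8 listed genes 4 were tested, and 0 passed in either direction by limma. The probes of the ligands Shh and Ihh were detected on no array and that of Dhh on 2, with signals of 29.6, 23.9 and 34.1 in wt and 55.0, 50.9 and 35.4 in ki. Disp1, which releases lipid-bearing ligand from the cells that make it, stood at 9.87, 10.01 and 9.96 in wt and at 10.11, 10.18 and 10.18 in ki (difference 0.21, SE 0.075, adjusted p = 0.115). Scube2, a secreted helper of that release, was at 6.12 ± 0.074 in wt and 5.86 ± 0.18 in ki (SD, difference -0.26, adjusted p = 0.163). It was detected on 3 wt and 2 ki arrays. Neither Disp1 nor Scube2 passed. Their groups did not overlap, which also held for 35.5% of all probes tested. The median over the list was 0.18, against 0.007 over all 10412 genes tested, of which 15.6% passed.

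Among co-receptors, 2 of the 3 tested genes were higher in ki and 0 lower, against 8.36% and 7.25% of all genes tested. Lrp2 (megalin), a large endocytic receptor that can take up Sonic hedgehog, was undetected on all wt arrays (5.45, 5.45 and 5.39) and reached 7.42, 7.34 and 7.74 in ki. That is at least 3.39-fold higher (adjusted p = 0.000168), a lower bound against the dimmest detected level on the wt arrays. This probe entered the test through the ki arrays alone, so its place in the count of 2 follows in part from the detection filter. With no filter its adjusted p was 0.000132. Its other tested probe went the other way, detected on 3 wt arrays and 1 ki array, with a difference of -0.49 (SE 0.15, adjusted p = 0.0812). The Lrp2 probes therefore disagree. Gpc3, a glypican that binds Hedgehog ligand and competes with Ptch1 for it, rose 1.27-fold, from 11.21 ± 0.11 to 11.56 ± 0.066 (SD, difference 0.35, SE 0.087, adjusted p = 0.0426). The call was lost in each fit with an array omitted (adjusted p from 0.0692 to 0.125), with the replicate number as a block (adjusted p = 0.0993), and under both median scalings (0.067 over all probes and 0.27 over detected ones). It was also lost with no detection filter (adjusted p = 0.11) and with the mean of its probes (0.31, adjusted p = 0.0521), the other of which gave 0.27 (adjusted p = 0.122). Cdon, a co-receptor that presents ligand to Ptch1, differed by -0.080 (adjusted p = 0.60), and the probes of Boc, Gas1 and Gpc5 were not tested.

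Regulators that act on Smo or on the Gli proteins did not pass in either direction, 0 of 17 tested against 15.6% of all genes, with a median difference of 0.039. Ulk3, a kinase that acts on Gli proteins, stood at 8.02, 8.12 and 8.09 in wt and at 8.26, 8.40 and 8.44 in ki. All ki arrays lay above all wt arrays (difference 0.29, SE 0.081, adjusted p = 0.061). It passed where only probes detected at a p under 0.01 on all arrays were tested (adjusted p = 0.0342), and with the mean of each gene's probes (0.0419). Dyrk2, a kinase that marks Gli2 for degradation, was at 6.67 ± 0.089 and 6.19 ± 0.39 (SD, difference -0.48, adjusted p = 0.148). This probe was detected on 3 wt and 2 ki arrays. Its other tested probe, detected on 1 wt and 2 ki arrays, gave 0.065. Without ki array 3, where the first probe was lowest, its difference was -0.26. Under scaling to the median of all probes the first probe passed (-0.58, adjusted p = 0.0244).

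The transport genes of the primary cilium, the compartment where Smo acts, had 2 of 20 tested members lower and 0 higher, a count near the 7.25% lower among all genes. The 2 were Ift43, a subunit of the complex that carries cargo back along the cilium, and Dync2h1, the motor heavy chain that drives it. Ift43 fell 1.26-fold, from 11.41, 11.36 and 11.35 in wt to 10.96, 11.06 and 11.09 in ki (difference -0.34, SE 0.074, adjusted p = 0.0285). Dync2h1 fell 1.22-fold, from 8.06 ± 0.010 to 7.77 ± 0.071 (SD, difference -0.29, SE 0.073, adjusted p = 0.0455), while its other tested probe gave 0.028. The median of the 20 was -0.12, with 14 below and 6 above 0, where all genes had 5103 below and 5309 above. Neither gene passed in a fit with an array omitted (adjusted p from 0.0522 to 0.0944 for Ift43 and 0.0596 to 0.122 for Dync2h1), nor with the replicate number as a block (0.0787 and 0.0987), nor with no detection filter (0.0855 and 0.138). Dync2h1 was also lost with the mean of its probes (-0.13, adjusted p = 0.326), a trended robust variance (0.103), an offset of 50 (0.0501) and both median scalings (0.0578 and 0.0571).

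Genes named as Hedgehog targets in other work, not in these cultures, went both ways. Of 14 tested, 4 were higher (Bmp4, Ccnd1, Bcl2 and Zeb2) and 3 lower (Snai1, Foxf1 and Foxf2), with a median difference of 0.23. Across all genes 8.36% were higher and 7.25% lower. The list was chosen with earlier results of these data known, so these counts do not test whether targets changed more often than other genes. Foxf1 and Foxf2 are forkhead factors of the lung mesenchyme. Foxf1 was at 8.25, 8.56 and 8.53 in wt and at 7.62, 7.86 and 7.70 in ki, 1.65-fold lower (difference -0.72, SE 0.12, adjusted p = 0.00925). Foxf2 was detected on all wt arrays (6.08, 6.24 and 6.14) and on no ki array (5.20, 5.37 and 5.71), at least 1.32-fold lower (adjusted p = 0.0172). It entered the test through the wt arrays alone, and its adjusted p was 0.0304 with no filter. It missed the threshold without any 1 of the wt arrays or without ki array 2 (adjusted p up to 0.0657), and under scaling to the median of detected probes (0.0981). Snai1, a repressor of epithelial genes, was 2.15-fold lower (adjusted p = 0.00211), with -0.71 from its other probe (adjusted p = 0.0944). That other probe was detected on 3 wt arrays and 1 ki array.

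Of the 4 that rose, Bmp4, a growth factor of lung mesenchyme, was 1.69-fold higher (difference 0.75, SE 0.073, adjusted p = 0.00133), and its second probe gave 1.06. Ccnd1, the gene of the cell-cycle protein cyclin D1, was at 11.98 ± 0.079 in wt and 12.77 ± 0.094 in ki (SD, difference 0.80, SE 0.085, adjusted p = 0.002), with 0.73 and 0.78 from its other probes. Under scaling to the median of all probes both missed the threshold (0.46, adjusted p = 0.0722, and 0.48, adjusted p = 0.0566). Bcl2, an inhibitor of cell death, stood at 7.25, 7.56 and 7.78 in wt and at 8.31, 8.28 and 8.21 in ki, 1.67-fold higher (0.74, SE 0.14, adjusted p = 0.0155). Zeb2, a transcriptional repressor, was 1.53-fold higher (0.61, SE 0.12, adjusted p = 0.0223). The other probes of Bcl2 gave 0.28 and 0.063 and that of Zeb2 0.010, none past the threshold. Bcl2 missed the threshold without wt array 2 (adjusted p = 0.0529) or ki array 1 (0.0533), and Zeb2 without wt array 1 or 2 or ki array 1 or 3 (0.0632 to 0.0707), and Zeb2 also under scaling to the median of all probes (0.37, adjusted p = 0.165) and with the mean of its probes (0.31, adjusted p = 0.25). On the same arrays mesothelial markers were higher (9 of 9), and fibroblast (5 of 8) and neutrophil markers (4 of 4) lower. The part of these shifts, or of the Hedgehog pathway, in the target differences was not tested. None of the 8 core probes tested passed, and Gli1 and Hhip had no tested probe.

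**Figure D4:**
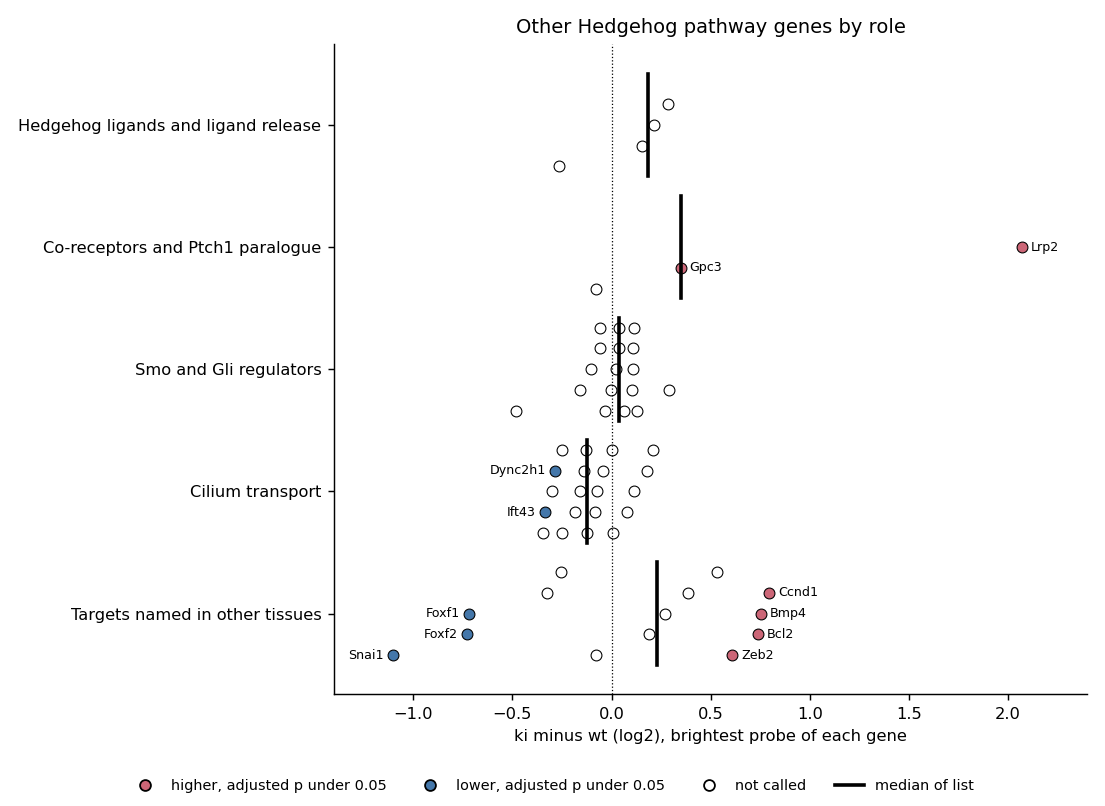
Difference ki minus wt (log2, horizontal axis) of the brightest tested probe of each pathway gene, by role, with filled points past an adjusted p of 0.05 and a bar at the list's median (points are spread vertically for legibility only). Called genes appear among co-receptors (2 higher), cilium transport (2 lower) and listed targets (4 higher, 3 lower), and none among ligands or regulators. The lists were chosen with earlier results of these data known.

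Likeness across arrays was described for Ptch1, since Gli1 was undetected. Over the 6 arrays the levels most like those of Ptch1 among 10411 other genes were those of Wwox (Pearson's r = 0.985), Rbks (0.985) and Lgr6 (0.967), and 16 genes exceeded 0.95. None of the 3 genes passed the test between genotypes (adjusted p = 0.553, 0.143 and 0.301). How many unrelated genes would exceed 0.95 over 6 arrays was not tested, so the likeness does not show a shared control.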

How the data were processed

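RNA was measured on Illumina bead arrays as biotin-labelled cRNA, per the labels' protocols. The deposited intensities of the non-normalised table, on a linear scale, held negative values, so background had been subtracted before deposit. The authors' second table held intensities normalised between arrays, and the series values equalled it in 100% of cells. The detection p-value of each probe was deposited with both. No source used here names the scanner software or the authors' normalisation method.

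Background was corrected by normexp in limma 3.58.1 under R 4.3.3 (negative controls inferred from detection p, offset 16), quantile normalised and taken to log2. Symbols came from the platform annotation, updated by gene identifier: 34885 probes carried 1 symbol and 10396 none or several. One linear model per probe with moderated variance (lmFit and eBayes of limma) was fitted to 18249 probes (4 residual degrees of freedom, Benjamini-Hochberg). These were the probes that 3 or more arrays detected at p under 0.05. The fit was first run on data simulated under its own variance model, which cannot show how it handles other data. The limit set there on its mean error was replaced after a failure was seen. For pathway lists a gene was read by its brightest probe.

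The members, the lists and the naming rule were chosen with earlier results of these data known. The rule named the 7 members, up to 6 passing genes of each list by smallest p (2 where none passed), every gene of a count of 5 or fewer, and the 3 genes most like Ptch1. Figures were drawn with matplotlib 3.10.9. Each array was a separate mouse, and precision is limited by having 3 per genotype.

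Alternatives were other background, scaling, offset, filter, variance, weighting and threshold settings, the authors' normalised table, a replicate block, other ways to join a gene's probes, and leaving out arrays. Same-numbered wt and ki arrays deviated from their group means with correlations of 0.004, 0.014 and 0.105 for numbers 1, 2 and 3. The highest correlation of either array with a differently numbered one of the other genotype was 0.109, 0.109 and 0.014. With 3 arrays per genotype, these values cannot decide whether the arrays were paired.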

Additional observations from a re-analysis of the deposited data

How the results depend on the processing

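Over 21 alternatives, 0 member probes passed in 19, and 1, the first Sufu probe, passed in 2: scaling to the median of all probes (-0.525, adjusted p = 0.042) and a threshold of 0.10 (-0.367, adjusted p = 0.0958). Ptch1, Gli3 and both Sufu probes kept their sign in each alternative that held them, with 0.0973 to 0.396, -0.389 to -0.0441, -0.525 to -0.277 and -0.499 to -0.148. Scaling to the median of all probes, where the median probe lay at -0.217 and 596 probes passed higher and 2399 lower, turned the sign of the brightest Smo probes (-0.133 and -0.0706), of Gli2 (-0.00650) and of Disp1 (-0.0264). Relative to that median Smo lay 0.0842 and 0.147 higher and Gli2 0.211 higher. The third Smo probe ran from -0.0664 to 0.344 with 1 array left out. The 11 passing pathway genes became 5 to 7 with 1 array left out, 6 without wt array 1 and ki array 2 together, and 5 at a threshold of 0.01, and rose to 13 with a trended robust variance and 16 at a threshold of 0.10. Over all probes 2604 passed, against 1495 to 1907 with 1 array left out, 807 without those 2 arrays, 1730 with no detection filter, 1056 at 0.01 and 1789 with the replicate block. More passed with an offset of 50 (2924), scaling to the median of all probes (2995), a trended robust variance (3794) and a threshold of 0.10 (3809). That block left 0 member probes passing and ended the calls of Gpc3, Ift43 and Dync2h1 alone among the named genes. Fits without arrays hold fewer samples by construction. For the scaling the cause was not tested. A slide block was not run, because the headers name no slide. Signal over background limits Gli1 and Hhip, whose probes stayed under the detection filter.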

Other observations

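Fitted without a detection filter, the second Gli2 probe differed by 0.29 (SE 0.099, adjusted p = 0.211 by limma), in the direction of the detected one. Hhip differed by 0.35 (SE 0.20, adjusted p = 0.468) and Gli1 by 0.11 (SE 0.098, adjusted p = 0.69). None of the 8 probes under the detection filter passed in that fit.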
